A study of Saccharomyces cerevisiae with 4 samples.

Results

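The minor hexose transporter genes of Saccharomyces cerevisiae are HXT8 (YJL214W), HXT9 (YJL219W), HXT10 (YFL011W), HXT11 (YOL156W), HXT13 (YEL069C), HXT14 (YNL318C), HXT15 (YDL245C), HXT16 (YJR158W) and HXT17 (YNR072W), and all 9 were found by systematic name among the 6690 names of the files. They were chosen because HXT10 and HXT14 are higher in a strain that lacks the deacetylase genes SIR2 and HST1, so the difference between genotypes in these genes is described here and not tested. RNA-seq compared 2 libraries of the wild-type strain with 2 of the deletion strain, both taken from exponential growth in YPD, a rich glucose medium. Each genotype was 1 strain, and the series calls its libraries technical replicates, so the spread between libraries does not cover the spread between cultures. Both strains were labelled as the alpha mating type with mutant alleles of URA3, TRP1, LEU2, HIS3 and CAN1, a deletion of LYS2 and ura3 in place of HMR. The deletion strain also carried hst1D::KanMX and sir2D::TRP1, so the loss of the deacetylases and the gain of these markers cannot be told apart. No strain lacked SIR2 alone or HST1 alone, so the parts of these genes cannot be told apart either. The GAL allele was labelled for the wild type alone.

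Hexose transporters of the Hxt family are plasma membrane proteins that let glucose and related sugars enter the cell down their gradient. HXT1 to HXT7 carry nearly all glucose uptake of growing cells, and glucose controls them through the sensors Snf3 and Rgt2 and the repressors Rgt1 and Mig1. HXT8 to HXT17 are weakly expressed in glucose and are less well understood. Hst1 acts with the DNA-binding protein Sum1 to repress genes of the middle phase of sporulation, and Sir2 silences chromatin near chromosome ends. Sum1 and the sporulation activator Ndt80 bind overlapping DNA sites that share a core with the letters CACAA.

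The sequence before HXT10 and HXT14 is shown because these genes lead the difference between genotypes. Each line gives 250 bases before the start codon and 50 bases from it, read 5′ to 3′ on the coding strand from the R64 assembly of RefSeq. HXT10 is at chrVI:112095-112394 on the plus strand and HXT14 at chrXIV:40280-40579 on the minus strand of R64, which may not be the build of the files. Capitals mark GNCACAA, a form of the core that sites of Sum1 and Ndt80 share.
HXT10: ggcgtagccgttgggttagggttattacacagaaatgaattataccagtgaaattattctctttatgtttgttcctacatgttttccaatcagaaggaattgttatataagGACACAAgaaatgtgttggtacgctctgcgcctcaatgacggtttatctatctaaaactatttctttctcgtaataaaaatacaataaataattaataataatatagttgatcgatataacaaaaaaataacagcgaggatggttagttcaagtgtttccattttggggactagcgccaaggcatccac
HXT14: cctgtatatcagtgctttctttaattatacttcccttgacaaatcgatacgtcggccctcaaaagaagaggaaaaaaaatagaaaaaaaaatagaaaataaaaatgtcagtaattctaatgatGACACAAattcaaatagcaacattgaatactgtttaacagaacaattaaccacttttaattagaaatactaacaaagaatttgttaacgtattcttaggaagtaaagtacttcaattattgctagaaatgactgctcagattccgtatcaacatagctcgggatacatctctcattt
GNCACAA, searched on both strands, occurred in these windows of HXT10 and HXT14 and in that of no other member. The copies lay 139 to 133 bases before the HXT10 start codon and 127 to 121 bases before that of HXT14, both on the coding strand, and both read GACACAA. Of 5987 windows of the same length before R64 genes, 11% held the motif. The shorter CACAAA, which shares 5 letters with GNCACAA where both match, was in the window of HXT14 alone, against 18.8% of all windows. In the 500 bases before the start codon CACAAA was found for HXT9, HXT10, HXT11, HXT14, HXT15, HXT16 and HXT17, which is 7 of 9 members against 29.7% of all. In those 500 bases GNCACAA was found for HXT10, HXT14, HXT15, HXT16 and HXT17, which is 5 of 9 members against 18.1% of 5986 windows. CGGANNA, the core bound by Rgt1, was in the 300-base windows of HXT8, HXT15 and HXT16 and in 26.4% of all, and in the 500 bases of 6 of 9 members and 42.1% of all. CCCCGC and CCCCAC, forms of the Mig1 core, were in none of the members' 300-base windows, against 2.59% and 4.39% of all. In the 500 bases CCCCGC was found for HXT8, HXT15, HXT16 and HXT17 (5.8% of all) and CCCCAC for HXT10, HXT13 and HXT17 (8.54% of all). Members that are copies of each other are counted separately here. The start windows of HXT15 and HXT16 are the same in 300 of 300 bases, and their matches lie at the same places. HXT9 and HXT11 each hold a CACAAA 369 to 364 bases before the start codon. The counts of members are thus not of independent sequences and are no evidence of enrichment. A match describes the letters only.

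The libraries carried their labels in the deleted genes, since SIR2 and HST1 were listed at 0 in both deletion libraries and above 23 FPKM (fragments per kilobase, scaled to the library, a level per length) in both wild-type libraries. The alpha-specific genes MF(ALPHA)1, MF(ALPHA)2, STE3 and SAG1 summed to 5518 and 5766 FPKM in wild type and to 4840 and 5508 FPKM in the deletion strain, and the a-specific genes MFA1, MFA2, STE2, BAR1 and STE6 to 99.7 and 39.6 FPKM and to 106 and 97.3 FPKM. Of these 9 genes 0 were higher and 1 was lower (limma), and before adjustment 2 had a higher and 3 a lower level at p under 0.05. Over all 6370 genes tested, 1925 had an unadjusted p under 0.05 in either direction (limma). The alpha-agglutinin gene SAG1 fell from 319 ± 22.1 to 165 ± 9.01 FPKM (SD, n = 2 each, limma adjusted p = 0.00359). The a-specific genes BAR1, with 4.82 and 7.18 FPKM, and MFA2, with 34.1 and 64.6 FPKM, did not pass (limma adjusted p = 0.0552 and 0.16), but BAR1 was called higher without the filter or without the trend of the variance with the mean, and MFA2 without wild-type replicate 1. MFA1 was listed at 0 in wild-type replicate 2 and between 14.2 and 35.3 FPKM in the other libraries, and was called higher without wild-type replicate 1 and lower without wild-type replicate 2. MF(ALPHA)1 was called lower after quantile normalization or without deletion replicate 2. The part of these differences in the results below was not tested. The files hold no read totals, so depth is unknown, and FPKM sums ran from 3419038 to 3662426. At low levels a few reads decide a value. In RNA from a whole culture, more RNA per cell and more cells that express a gene cannot be told apart.

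HXT14 had the largest difference of the family. It encodes the most diverged member, with galactose transport reported for it in yeast. HXT14 read 0.10 and 0.0535 FPKM in wild-type replicates 1 and 2 against 25.4 and 30.1 FPKM in deletion replicates 1 and 2, an order of replicates kept below. The genotypes did not overlap, and the level went from above 3.96% of all names in wild type to above 41.8% in the deletion strain. The mean was 0.0769 ± 0.0332 FPKM in wild type and 27.8 ± 3.33 FPKM in the deletion strain (SD, n = 2 each), a difference of 4.74 in log2(FPKM + 1). No fold is given, because the wild-type level is close to 0.

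HXT10 encodes a hexose transporter that is repressed by glucose. HXT10 read 0.440 and 0.934 FPKM in wild type against 12.7 and 15.0 FPKM in the deletion strain, again with no overlap. Its mean went from 0.687 ± 0.350 to 13.8 ± 1.60 FPKM (SD, n = 2 each), a log2(FPKM + 1) difference of 3.15. The deletion level of HXT10 lay below that of HXT14 in each library. HXT10 stood above 5.38% of all names in wild type and above 23.1% in the deletion strain.

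**Figure D1:**
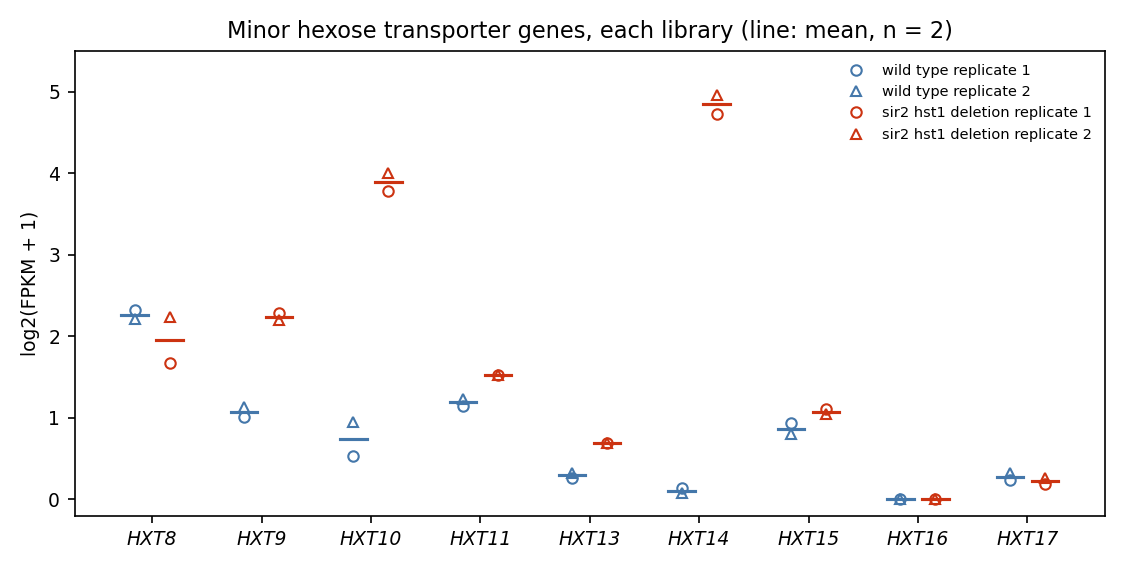
Level of each minor hexose transporter gene on the vertical axis, as log2(FPKM + 1), in the 4 libraries; circles and triangles are replicates 1 and 2, blue is wild type, red is the deletion strain, and lines are means of 2. HXT14 and HXT10 reach 4.84 and 3.89 on average in the deletion strain, whereas HXT16 is at 0 throughout.

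HXT9 and HXT11 encode near-identical transporters that the drug resistance regulators Pdr1 and Pdr3 activate. HXT9 read 1.02 and 1.19 FPKM in wild type against 3.86 and 3.60 FPKM in the deletion strain, and the genotypes did not overlap. HXT11 read 1.22 and 1.34 FPKM in wild type against 1.88 and 1.87 FPKM in the deletion strain, a smaller separation. The log2(FPKM + 1) differences were 1.17 for HXT9 and 0.33 for HXT11. After quantile normalization that of HXT11 changed sign to -0.31, while that of HXT9 was 0.60. The summed level of the pair went from 2.39 ± 0.209 to 5.60 ± 0.188 FPKM (SD, n = 2 each). PDR1 had 21.9 and 22.3 FPKM and PDR3 27.1 and 26.1 FPKM in wild type and deletion, and neither passed (limma, adjusted p = 0.855 and 0.599).

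HXT13, HXT15, HXT16 and HXT17 form a group of closely related proteins, for which transport of the sugar alcohols mannitol and sorbitol has been described in yeast. HXT13 read 0.201 and 0.250 FPKM in wild type against 0.620 and 0.608 FPKM in the deletion strain. HXT15 read 0.909 and 0.746 FPKM in wild type against 1.15 and 1.06 FPKM in the deletion strain. In both genes the genotypes did not overlap, but the log2(FPKM + 1) differences were only 0.40 and 0.21, and after quantile normalization they were -0.15 and -0.42. HXT17 read 0.179 and 0.250 FPKM in wild type against 0.135 and 0.203 FPKM in the deletion strain, where the genotypes overlap. HXT16 was listed at 0 in all 4 libraries. A listed 0 can be a failed estimate, and its copy HXT15 was listed above 0 in every library.

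HXT8, a weakly expressed member with no near-identical copy, had the highest level of the family in wild type. HXT8 read 4.00 and 3.62 FPKM in wild type against 2.19 and 3.73 FPKM in the deletion strain. Deletion replicate 1 lay below both wild-type values and deletion replicate 2 between them, so the genotypes overlap (log2(FPKM + 1) difference -0.31).

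The order of levels changed at the top. In wild type it ran HXT8, HXT11, HXT9, HXT15, HXT10, HXT13, HXT17, HXT14 and HXT16. The ranges of HXT15 and HXT10, and of HXT13 and HXT17, overlapped there, and the other neighbours in that order were apart. HXT11 and HXT9 were only narrowly apart, with a lowest HXT11 value of 1.22 FPKM and a highest HXT9 value of 1.19 FPKM. In either genotype the order within pairs of near-identical members depends on an uncertain split of reads. In the deletion strain HXT14 came ahead of HXT10, then HXT9, HXT8, HXT11, HXT15, HXT13, HXT17 and HXT16. Only HXT9 and HXT8 overlapped in that order.

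Over the family, 6 of 9 members were higher in both deletion libraries than in both wild-type libraries, 0 were lower in both and 3 overlapped, although HXT11, HXT13 and HXT15 turned negative after quantile normalization. Of all 6690 names, 29.7% were higher in this sense and 30.4% lower, and of the 2184 names with a mean under 20 FPKM 33.8% were higher. With a log2(FPKM + 1) difference of at least 1 as well, the count was 3 of 9 (HXT9, HXT10 and HXT14) beside 3.65% of all names and 6.78% of those with a mean under 20 FPKM, a level that all 9 members stay below. The members were chosen on this contrast, so these counts describe them and are no evidence about them. The median log2(FPKM + 1) difference was 0.33 over the 9 members and 0 over all names. A filter of at least 1 FPKM in at least 2 libraries passed 6 members and left out HXT13, HXT16 and HXT17. HXT10, HXT14 and HXT15 passed it through the deletion libraries alone.

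**Figure D2:**
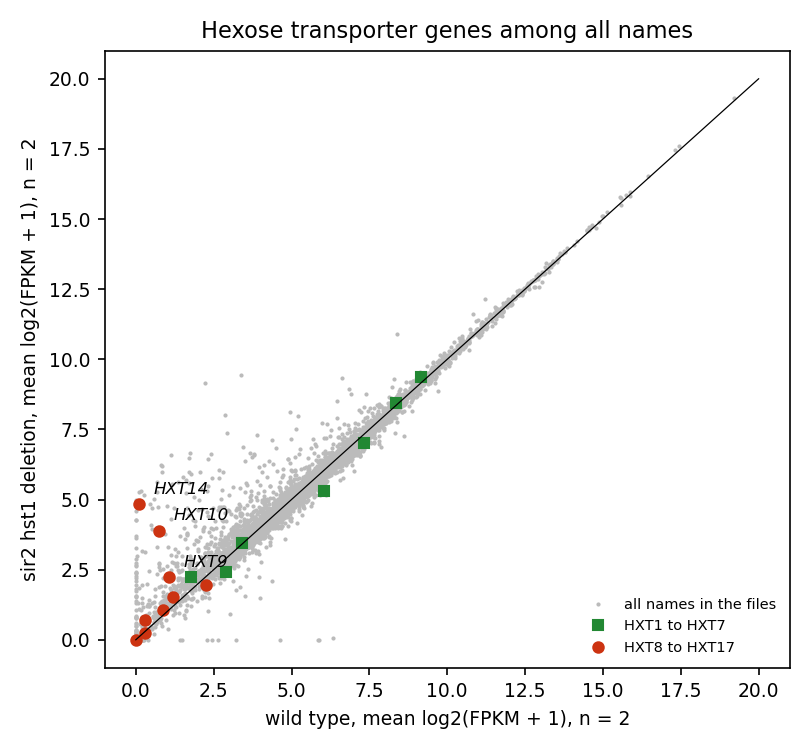
Mean log2(FPKM + 1) of the 2 deletion libraries against that of the 2 wild-type libraries for all 6690 names (grey), HXT1 to HXT7 (green squares) and HXT8 to HXT17 (red circles), with the line of equality. HXT14 and HXT10 lie 4.74 and 3.15 above that line, HXT9 lies 1.17 above it, and HXT4, the farthest of HXT1 to HXT7, lies 0.72 below it.

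The 9 genes summed to 8.07 and 8.39 FPKM in wild-type replicates 1 and 2 and to 48.0 and 56.2 FPKM in deletion replicates 1 and 2. HXT10 and HXT14 made up 6.70% and 11.8% of that sum in wild type and 79.5% and 80.3% in the deletion strain. The other 7 genes together went from 7.46 ± 0.0925 to 10.4 ± 0.877 FPKM (SD, n = 2 each). HXT1 to HXT7 summed to 1145, 1142, 1136 and 1236 FPKM in wild-type replicates 1 and 2 and deletion replicates 1 and 2. Of the summed level of these 16 HXT genes, the minor members were thus 0.700% and 0.729% in wild type and 4.05% and 4.35% in the deletion strain.

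Sequence set the members apart in how far their reads can be assigned. In R64 the proteins of HXT15 and HXT16 were 99.6% identical, those of HXT9 and HXT11 97.9%, and those of HXT13 and HXT17 97.5%. Pairs that joined HXT13 or HXT17 with HXT15 or HXT16 were between 89.9% and 90.7% identical. HXT14 was between 30.7% and 35.1% identical to the other members, whereas HXT10 was between 51.2% and 62.0% identical to the members other than HXT14, and closest to HXT2 at 76.7%. None of the 50-base windows of the coding sequences of HXT8, HXT10 and HXT14 (1661, 1592 and 1574 windows) occurred elsewhere in R64. For HXT15 and HXT16 94.2% and 94.0% of windows did, for HXT9 and HXT11 61.9% and 67.1%, and for HXT13 and HXT17 31.8% and 30.2%. The start windows of HXT15 and HXT16 were the same in 300 of 300 bases. How the authors counted reads that match several places is not given in the sources used here, so the split of reads within these 3 pairs is uncertain. The major pair HXT6 and HXT7, with 95.1% of windows found elsewhere, was listed at 2.39 and 6.42 FPKM on average in wild type.

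**Figure D3:**
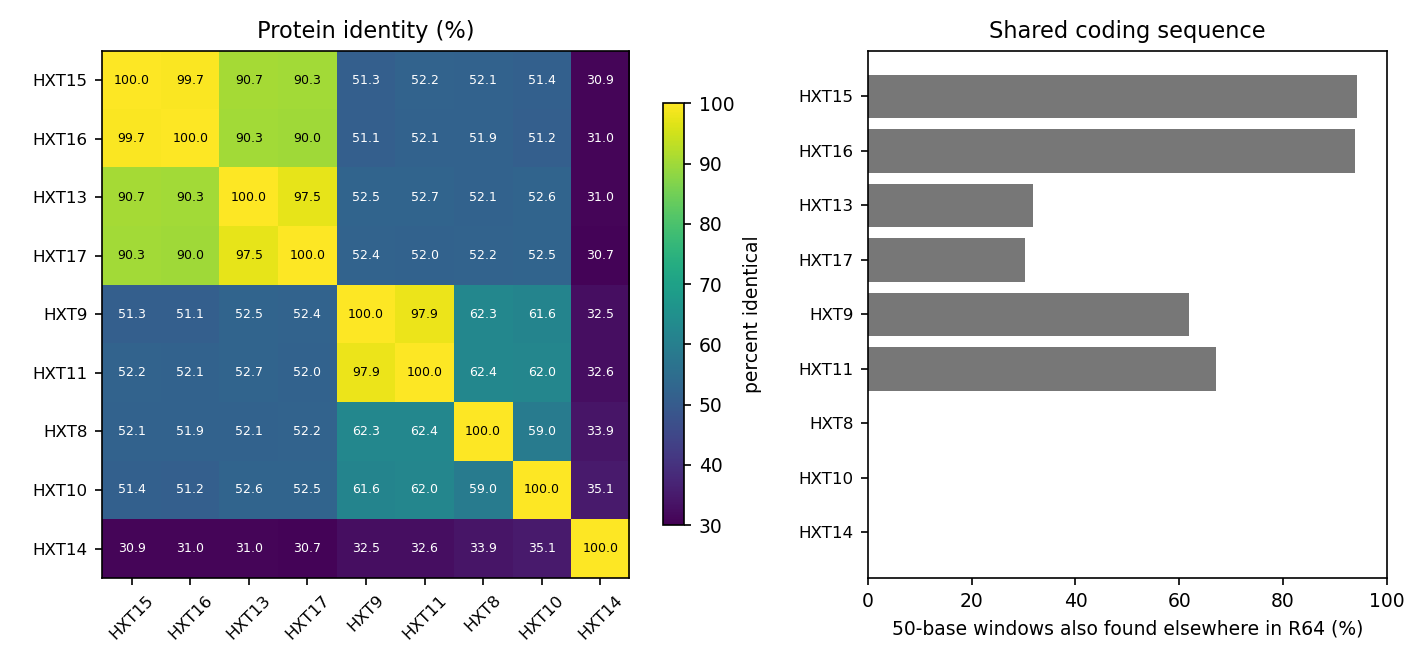
Left, percent of identical residues between each pair of members in a global protein alignment; right, percent of 50-base windows of each coding sequence that occur elsewhere in R64. HXT15 and HXT16 share nearly all of their sequence, while the bars of HXT8, HXT10 and HXT14 are at 0.

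By position, most members lie toward chromosome ends in R64. HXT17, HXT16, HXT15, HXT9, HXT13, HXT11 and HXT8 were 9.98, 11.6, 11.7, 19.5, 21.5, 25.3 and 26.9 kb from an end. HXT14 was 38.7 kb and HXT10 112 kb from an end, the farthest of the family. The log2(FPKM + 1) difference was 4.74 for HXT14, 3.15 for HXT10 and 1.17 for HXT9, which lies at 19.5 kb. The part of position in these differences was not tested.

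Names next to the members were not used to choose them and were tested, with limma over all 6370 genes that passed the filter. YNL319W is left out of these counts and described without a test, because its reads and those of HXT14 cannot be told apart. Of the other 20 names numbered next to a member, 13 were tested, 3 were higher in the deletion strain and 0 were lower (6 were higher and 1 was lower at an unadjusted p under 0.05). The median log2(FPKM + 1) difference of the 13 was 0.07, against -0.01 over all genes tested. Over all genes tested 6.75% were higher and 2.79% lower, and 1925 of the 6370 had an unadjusted p under 0.05 in either direction. R64 also places IMA5 800 bases from HXT8, IMA4 960 from HXT9, YNL320W 152 from HXT14 and THI11 2843 from HXT16. These genes were not examined, because names were taken by number.

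YFL012W, an uncharacterized gene that ends 1251 bases before HXT10 on the same strand, read 6.30 and 7.06 FPKM in wild type against 170 and 157 FPKM in the deletion strain. It rose 24.5-fold (log2(FPKM + 1) difference 4.42, SE 0.08, limma adjusted p = 9.35e-05). On the other side of HXT10, AUA1 had 147 and 155 FPKM on average and WWM1 97.2 and 95.7 FPKM, and neither passed (adjusted p = 0.644 and 0.862). YFL012W-A, numbered next to HXT10 and absent from R64, read 3.98 and 3.19 FPKM in wild type against 5.05 and 8.47 FPKM in the deletion strain. It did not pass (limma adjusted p = 0.14). Of the names numbered next to HXT10, YFL012W alone passed.

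YNL319W, a name on the other strand from HXT14 and absent from R64, read 2.77 and 3.14 FPKM in wild type against 23.4 and 23.8 FPKM in the deletion strain. Its place relative to HXT14 was not checked and the use of strand is unknown, so its level cannot be taken as independent of that of HXT14, on which the members were chosen. PFS2, an mRNA processing gene that R64 places 289 bases before HXT14 on the opposite strand, had 19.0 ± 0.886 and 19.6 ± 1.90 FPKM (SD, n = 2 each) and did not pass (limma adjusted p = 0.80).

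YJL218W, annotated as an acetyltransferase and 772 bases after HXT9 on the same strand, read 10.1 and 7.90 FPKM in wild type against 25.4 and 23.6 FPKM in the deletion strain. It rose 2.73-fold (limma adjusted p = 0.00593), but missed the threshold when deletion replicate 1 (adjusted p = 0.0638) or deletion replicate 2 (0.058) was left out. YJR157W, next to HXT16 by name and absent from R64, read 0.626 and 0 FPKM in wild type against 2.77 and 3.25 FPKM in the deletion strain, and passed (limma adjusted p = 0.0439). It did not pass with a pseudocount of 0.1 (adjusted p = 0.112), without the filter (0.0863), after quantile normalization (0.109) or with the replicate block (0.0679), and it was under the filter when either deletion library was left out. The next names YJL220W, YOL155W-A, SOR2, YNR071C and MAN2 were listed at 0 in all 4 libraries. As for HXT16, a listed 0 can be a failed estimate, and sequence that these names share with others was not searched.

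**Figure D4:**
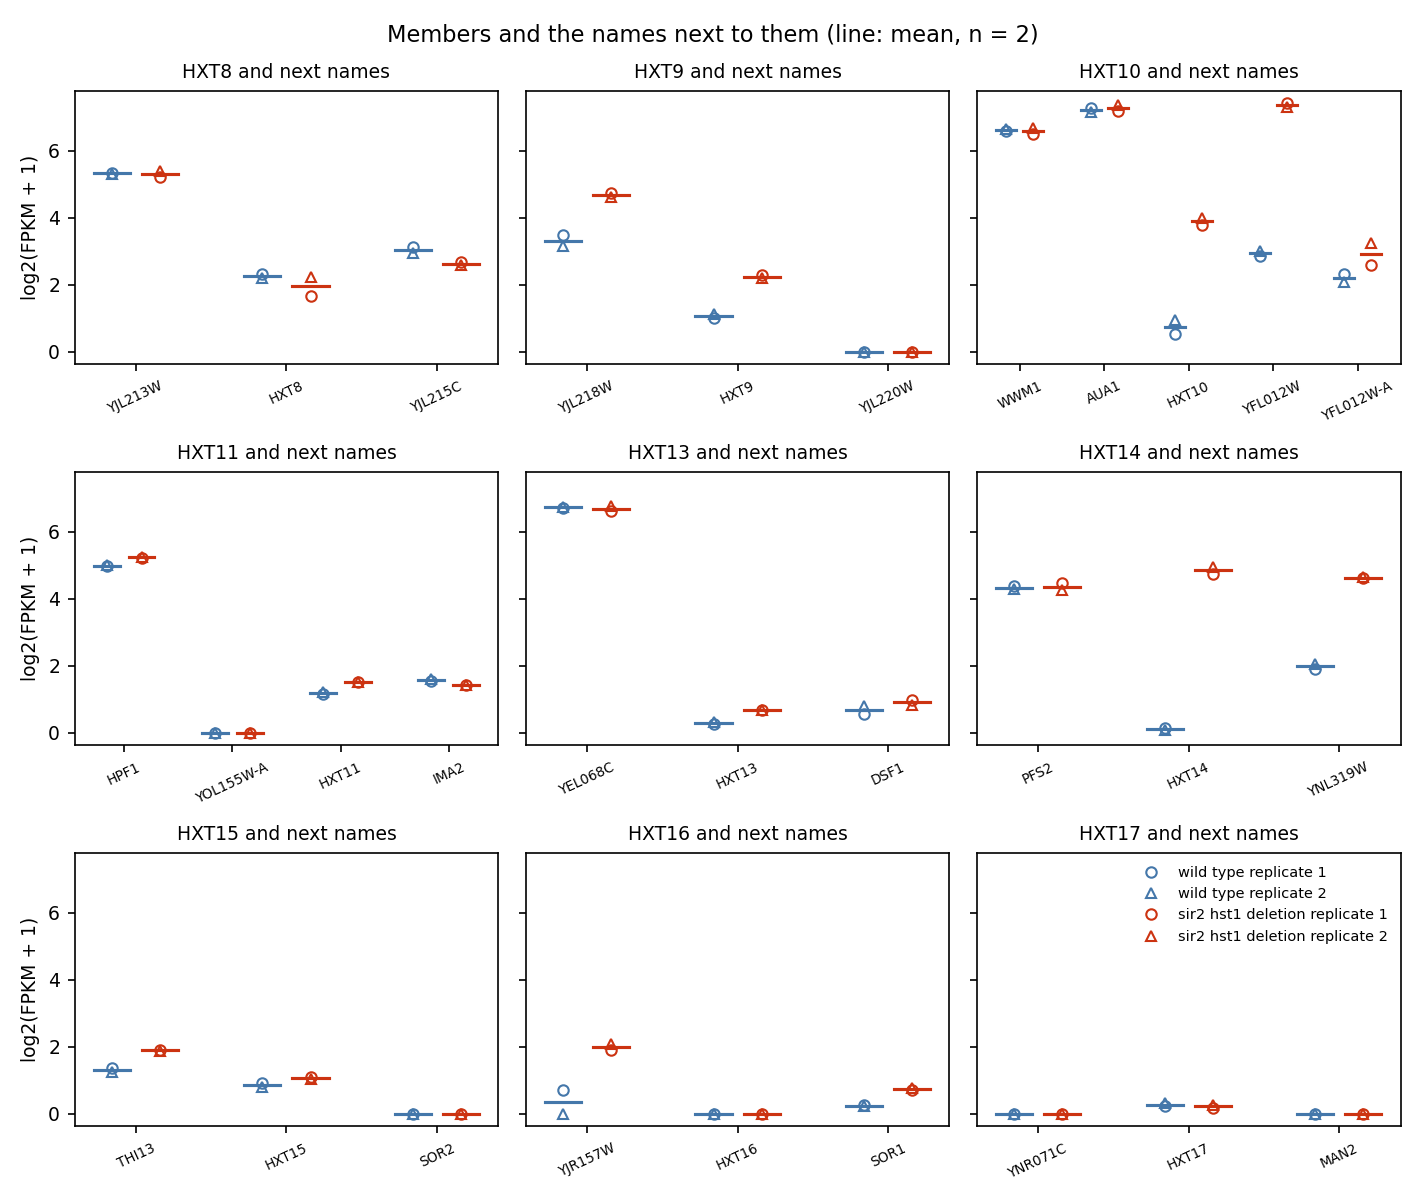
Level of each member and of the names numbered next to it, as log2(FPKM + 1), in the 4 libraries, in the order of the systematic numbers, which count outward from the centromere; symbols as in the plot of members. YFL012W beside HXT10, YNL319W beside HXT14 and YJL218W beside HXT9 are higher in both deletion libraries, while PFS2, WWM1 and AUA1 overlap between genotypes.

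None of the listed genes that transport, sense, signal or phosphorylate glucose passed the test, 0 of 27 in either direction. Before adjustment, 2 of 10 major transporters and sensors had a higher and 3 a lower level at p under 0.05 (limma). These counts include HXT6 as higher and HXT7 as lower, the pair with 95.1% of windows found elsewhere, so their split of reads is uncertain. Summed, HXT6 and HXT7 had 8.81 ± 0.988 FPKM in wild type and 8.16 ± 0.392 FPKM in the deletion strain (SD, n = 2 each). HXT4 had 74.6 and 55.6 FPKM in wild type and 36.4 and 40.8 FPKM in the deletion libraries (adjusted p = 0.0591), and HXT1 averaged 159 and 127 FPKM (adjusted p = 0.0693). Before adjustment, 0 of 17 genes of glucose signalling and phosphorylation had a higher and 5 a lower level at p under 0.05 (limma). That list had a median log2(FPKM + 1) difference of -0.11. Such p-values are common here, since 1925 of all 6370 genes tested had an unadjusted p under 0.05 in either direction. The hexokinase gene HXK1 averaged 36.9 and 26.0 FPKM (adjusted p = 0.059), and the glucose repressor gene MIG2 12.8 and 8.11 FPKM (adjusted p = 0.0835). Calls appeared in some alternatives, with HXK1, HXT7 and MIG2 lower after quantile normalization, HXK1 lower with robust eBayes, HXT4 and MIG2 lower without wild-type replicate 2, GLK1 lower without deletion replicate 2 and TUP1 higher without deletion replicate 1. The sensor gene SNF3 had 4.87 ± 0.0847 FPKM in wild type and 4.87 ± 0.0655 FPKM in the deletion strain (SD, n = 2 each). RGT1 and MIG1, which encode the repressors, had 5.99 and 6.33 FPKM and 17.1 and 18.0 FPKM.

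Of 9 polyol and disaccharide genes 3 were tested and 0 passed (limma, with 0 also at an unadjusted p under 0.05). The sorbitol dehydrogenase gene SOR1, next to HXT16, read 0.191 and 0.171 FPKM in wild type against 0.647 and 0.694 FPKM in the deletion strain, under the filter of 1 FPKM. DSF1, a mannitol dehydrogenase gene next to HXT13, read 0.484 and 0.743 FPKM in wild type against 0.955 and 0.794 FPKM in the deletion strain. Both genes were separated between genotypes at levels under 1 FPKM and were not tested. Sequence that SOR1 and DSF1 share with other genes was not searched, so their reads may not be theirs alone. Without the filter SOR1 was called higher, as was THI13, a thiamine gene next to HXT15 with near-identical copies, which was also called higher without the trend of the variance with the mean.

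Among 5 genes of middle sporulation control, the deleted SIR2 and HST1 were lower. SUM1 had 23.4 ± 1.29 and 30.0 ± 0.686 FPKM (SD, n = 2 each) and missed the threshold (limma adjusted p = 0.0501), but passed as higher with a pseudocount of 5, a minimum of 5 FPKM, median ratio scaling or robust eBayes. RFM1, which links Sum1 to Hst1, had 26.0 and 22.9 FPKM (adjusted p = 0.149), and NDT80 had 24.6 and 28.4 FPKM (adjusted p = 0.201).

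The genes with the most similar levels were found by the distance in log2(FPKM + 1) over the 4 libraries among the genes tested, as a description. For HXT10 they were RRT5 (distance 0.33), PRM6 (0.54), YPR077C (0.70), YAR073W (0.87) and YAR075W (0.88). RRT5 read 0.650 and 1.23 FPKM in wild type against 11.5 and 14 FPKM in the deletion strain. For HXT14 they were YCL065W (0.43), OSW1 (0.53), ANS1 (0.55), YFR057W (0.61) and CDA2 (0.65). YCL065W, the closest, read 0 and 0 FPKM in wild type against 33.8 and 28.5 FPKM in the deletion strain. ANS1 read 0.121 and 0.270 FPKM against 31.5 and 39.3 FPKM. YFR057W, near the right end of chromosome VI, read 0.132 and 0 FPKM against 35.7 and 39.2 FPKM. OSW1, a spore wall gene, read 0.421 and 0.353 FPKM in wild type against 27.0 and 28.3 FPKM in the deletion strain. CDA2, a chitin deacetylase gene of the spore wall, read 0.136 and 0.102 FPKM in wild type against 36.5 and 40.2 FPKM in the deletion strain. A function is named for OSW1 and CDA2 only, and the nearest genes were not compared by function or place.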

How the data were processed

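The deposited values are FPKM per name, 1 file per library, made by the authors with TopHat2 2.0.10 and Cuffnorm 2.2.1 per the submitters' processing notes. The genome build, annotation, scaling, strand use and treatment of reads with several matches are not stated in the labels or files. Of 6690 names 6007 matched a locus tag of R64 (refseq_genes table, GFF and genome of RefSeq), which gave symbols, sequences, gaps and distances. The members and lists were chosen with earlier results of these data known.

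The 6370 genes that reached 1 FPKM in 2 or more libraries entered limma 3.58.1 (R 4.3.3). It was fitted to log2(FPKM + 1), a scale that understates the change of low genes, with genotype as its single term, eBayes and a trend of the variance with the mean (prior degrees of freedom 2.65). P-values were adjusted by Benjamini-Hochberg over all of these genes, with 0.05 as the threshold. The test was checked on simulated data. Technical replicates make p-values measure the spread between these libraries only. No p-value is given for members. Identity came from global alignments of R64 coding sequences and their translations in biopython 1.88. Named non-members came from fixed lists, names numbered within 1 of a member and the 5 nearest profiles. Folds are ratios of mean FPKM and are given only where both means reach 2 FPKM. HXT12, a pseudogene, was not analysed here.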

Additional observations from a re-analysis of the deposited data

How the results depend on the processing

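The directions of HXT8, HXT9, HXT10, HXT14 and HXT17 held under all 8 alternatives tried for members. The log2 difference of HXT14 ran from 2.69 to 7.31 and that of HXT10 from 1.73 to 4.22, the extremes coming from pseudocounts of 5 and 0.1. HXT11, HXT13 and HXT15 fell below 0 after quantile normalization (-0.31, -0.15 and -0.42) and kept their sign otherwise. For the pairs of copies, the summed log2 difference of HXT9 and HXT11 was 0.96 against 1.17 and 0.33 alone, and that of HXT13 and HXT17 was 0.31 against 0.40 and -0.06 alone. Over all genes tested, 430 were higher and 178 lower. Leaving out 1 library at a time gave between 184 and 377 higher and between 47 and 83 lower genes, with a lone library assumed to vary like the other genotype. Without the filter 76 were lower, after quantile normalization 296 and with the replicate block 111. The replicate block gave 360 higher genes. The deviations of same-numbered libraries correlated at -0.09 over genes, so no pairing was seen over genes as a whole. That value cannot exclude a batch that same-numbered libraries share. Of the listed genes, without the mating-type genes, 4 were higher and 2 lower. The 2 lower were the deleted SIR2 and HST1, a difference set by the strain. The 4 higher include YNL319W, whose level cannot be taken as independent of that of HXT14, and 3 remain without it. YNL319W is also among the listed genes counted next. Between 2 and 4 were higher and between 0 and 3 lower when 1 library was left out, where SIR2 and HST1 are not tested without either wild-type library because 1 library above 0 does not pass the filter. After quantile normalization 6 were lower (SIR2, HST1, HXK1, HXT7, MIG2 and YJL215C), the cause of which was not tested. YFL012W and SAG1 passed under all 13 alternatives. With no read totals, the counting error of members at levels under 1 FPKM is unknown.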
